A study of Mus musculus with 13 samples.

Results

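The stefin A cluster of mouse chromosome 16 was read together with 2 other cystatins of skin, as a family of 10 genes among the 49315 genes counted. The 10 genes were *Stfa1*, *Stfa2*, *Stfa2l1*, *Stfa3*, *BC100530*, *BC117090*, *Gm5483* and *Csta1* of the cluster, *Cstb* on chromosome 10 and *Cst6* on chromosome 19. They were chosen on gene family and position with the DKO against WT values of these same libraries already known, since *Stfa2* had been seen to differ there. For that reason the DKO against WT values of the 10 genes are given below as a description, without p-values.

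Total RNA was sequenced from whole back skin of 3 WT mice and of 3 littermates with the genotype *K14Cre+Kctd1fl/flKctd15fl/fl* (called DKO here), all at postnatal day 4 (P4). In the DKO mice, Cre recombinase under the keratin 14 promoter removes the floxed exon of *Kctd1* and of *Kctd15* in keratinocytes. By this design, skin cells in which that promoter has not been active keep both genes. A further 7 epidermis libraries, 4 from DKO and 3 from *K14Cre+Kctd15fl/fl* mice aged 3 weeks, hold a count of 0 for every gene in the files used here and gave no value. The 6 P4 libraries held between 11263863 and 17643043 counts, in which the floor of 3 counts corresponds to 0.17 to 0.266 CPM (counts scaled to the size of the library), for counting error only.

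Cystatins are reversible inhibitors of papain-like cysteine proteases, the cysteine cathepsins, whose active-site cleft they block. Stefins are the small cystatins that lack a signal peptide and act inside the cell, whereas *Cst6* (cystatin E/M) and *Cst3* (cystatin C) are secreted. In the epidermis, stefin A is made by differentiating keratinocytes and is cross-linked by transglutaminases into the cornified envelope, the protein shell of the dead surface layer. Humans carry a single stefin A gene, *CSTA*, whereas the mouse has a tandem array of copies, and neutrophils express several of the copies as well. Cystatin E/M inhibits cathepsins L and V and legumain, and its loss disturbs cornification in mice.

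The cluster spans 335 kb of chromosome 16 (GRCm38, chr16:36119946-36455392), with 3 exons in the main transcript of each of its 8 genes. The first 150 coding bases of 4 genes are printed to show how alike the copies are and why reads must be told apart between them. They were read from the GENCODE M21 transcripts on GRCm38, and capitals mark bases that differ from *Stfa2* in the alignment.
*Stfa2*: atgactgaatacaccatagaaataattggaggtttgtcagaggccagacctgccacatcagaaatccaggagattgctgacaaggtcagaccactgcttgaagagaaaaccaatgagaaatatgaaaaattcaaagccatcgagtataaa
*Stfa2l1*: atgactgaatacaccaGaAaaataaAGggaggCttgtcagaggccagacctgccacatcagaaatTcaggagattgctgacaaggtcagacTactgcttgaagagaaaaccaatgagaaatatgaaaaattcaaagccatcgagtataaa
*Stfa3*: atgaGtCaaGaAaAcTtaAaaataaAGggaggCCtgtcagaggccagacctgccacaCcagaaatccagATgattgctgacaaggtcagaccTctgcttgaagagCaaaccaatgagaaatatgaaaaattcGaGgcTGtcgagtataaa
*BC100530*: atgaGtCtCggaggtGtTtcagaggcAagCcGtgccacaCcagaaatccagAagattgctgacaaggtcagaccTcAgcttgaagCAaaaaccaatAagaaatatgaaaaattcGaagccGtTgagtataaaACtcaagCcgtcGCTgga
In these stretches *Stfa2l1* differed from *Stfa2* at 7 bases, *Stfa3* at 20 and *BC100530* at 24, and the alignment of *BC100530* also skipped 18 bases of *Stfa2*. The skipped bases reflect a shorter coding sequence, which is 309 bases in *Stfa2*, *Stfa2l1* and *Stfa3*, 288 in *BC117090*, and 291 in the other 4 genes of the cluster.

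Over the whole coding sequence the cluster held 2 groups of close copies. *Stfa2* and *Stfa2l1* were identical at 96.4% of alignment columns. *Stfa1* and *BC100530* were identical at 97.9%, and *BC117090* matched *BC100530* at 95.2% and *Stfa1* at 93.5%. *Stfa3* was nearest to *Stfa2l1* (81.6%) and to *Stfa2* (80.9%), and *Gm5483* and *Csta1* were nearest to each other (83.5%). *Cstb*, or stefin B, stood outside the cluster in sequence as in position, with 61.7% to its nearest relative *Gm5483*, and *Cst6* reached 43.5% with *Stfa3*.

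**Figure D1:**
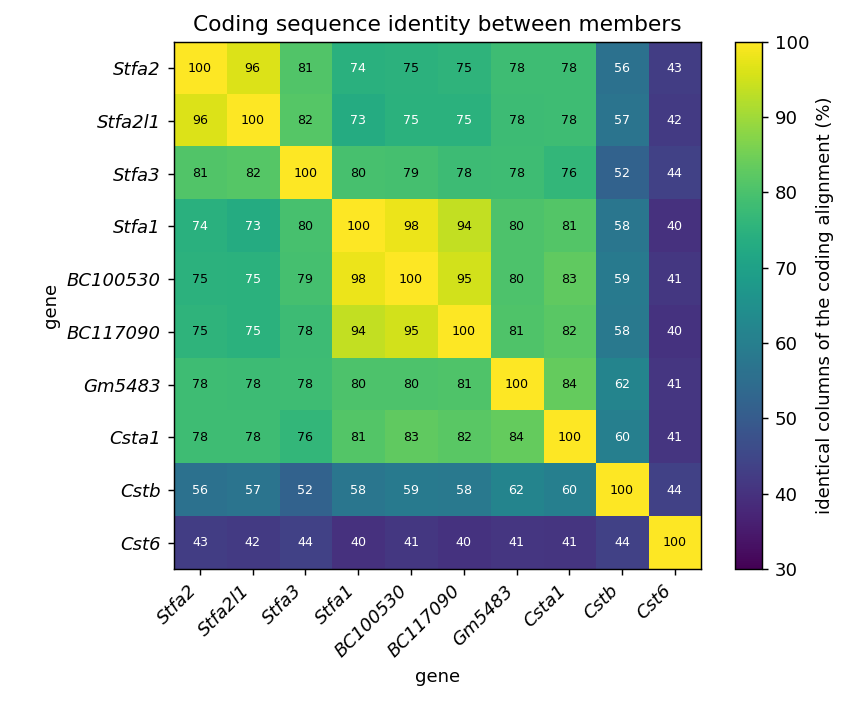
Percent of identical columns in pairwise global alignments of the coding sequences of the 10 genes, one gene per row and per column. *Stfa2* with *Stfa2l1* (96.4%) and *Stfa1* with *BC100530* (97.9%) and *BC117090* (93.5%) form the brightest blocks, and *Cst6* is the most distant from every other gene.

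The likeness bears on the counts, because a read that fits several copies can be given to the wrong one or dropped. The reads were 150 bases long, and 0 of the 150-base windows in the main transcript of any of the 10 genes occurred unchanged in a transcript of another annotated gene. At 50 bases, shared windows made up 15.9% of *Stfa2*, 24.6% of *Stfa2l1*, 26.9% of *Stfa1*, 33.7% of *BC117090*, 35.6% of *Gm5483* and 48.9% of *BC100530*. *Csta1* shared 0.8% of its 50-base windows, and *Stfa3*, *Cstb* and *Cst6* shared 0%. Reads trimmed or mapped over a short stretch could therefore still be divided among the copies. How the counting treated reads that map to several genes, and whether it used the strand, is not given in the sources used here. *BC100530* also overlaps the antisense gene *Gm15845* (deposited counts of 23, 25 and 20 in WT skin and 11, 14 and 10 in DKO skin), and without strand the reads of the pair cannot be told apart.

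Before the family was read, the libraries were checked against their labels. The mean of *Kctd1* was 432 ± 19 normalized counts in the WT and 742 ± 240 in the DKO libraries (SD, n = 3 each), and that of *Kctd15* was 745 ± 15.5 and 1321 ± 189. Both targeted genes were higher in every DKO library than in every WT library, with adjusted p = 0.342 and 0.107 (edgeR quasi-likelihood test, Benjamini-Hochberg adjustment). The counts are per gene, so they do not show the loss of the floxed exon, and the direction of each difference rests on the labels. The study reports that its RNA-Seq showed efficient removal of both floxed exons, in epidermal sheets of the single knockouts and also in DKO mice. Markers of the main skin cell types were present: 10 basal keratinocyte genes summed to 4028 to 4250 CPM in WT and 3781 to 5069 CPM in DKO skin, and 10 fibroblast genes to 16406 to 20297 and 18910 to 24848 CPM. DKO replicate 1 stood apart in 12 skeletal muscle genes, whose sum was 20765 CPM there against 8395 and 9677 CPM in the other DKO libraries and 5801 to 6643 CPM in WT skin.

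In WT skin, the family ranged from abundant to barely detectable. Levels are compared between genes as CPM per kilobase of counted gene length (CPM per kb), as means ± SD of 3 mice. *BC100530* was highest at 129 ± 14.1, followed by *Stfa3* at 103 ± 19.6 and *Cstb* at 75.1 ± 12.7. The values of *BC100530* overlapped those of *Stfa3*, and those of *Stfa3* overlapped those of *Cstb*, so the order of these 3 genes was not separated by the spread between mice. *Stfa2* came next in WT skin at 37.4 ± 5.77, below every value of *Cstb*, and overlapped *Cst6* at 32 ± 12.1, which in turn overlapped *Stfa1* at 27.3 ± 3.26. *Csta1* followed at 14.1 ± 0.744, below every value of *Stfa1*. *BC117090* reached 2.61 ± 0.532, and the other 2 cluster genes were near the floor. Of the 9 neighbouring pairs in this order, 4 did not overlap, and 5 of 9 did not when the counts were left undivided by length. The order itself also depended on the counted length, 3951 bases for *Cst6* and 2783 for *Csta1* against 423 for *Stfa2* and 418 for *Stfa1*. Undivided, *Csta1* (594, 651 and 713 deposited WT counts) lay above *Stfa2* (208, 328 and 259) and *Stfa1* (163, 182 and 226). *Cst6* had 2511, 2387 and 1306, beside 1557, 1582 and 1946 for *BC100530*.

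In DKO skin the same 10 genes held a different order at the top, again as CPM per kb. *Stfa2* led with 347 ± 48 CPM per kb, and its lowest DKO value, 299, lay above the highest value of any other member in either group. *Stfa3* at 114 ± 20.6 and *BC100530* at 102 ± 18.6 overlapped each other, and *Cstb* (66.6 ± 18.2), *Cst6* (37.5 ± 22.5), *Stfa1* (26.8 ± 6.78), *Csta1* (13.5 ± 1.86) and *BC117090* (4.68 ± 1.45) followed in the order they had among themselves in WT skin.

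**Figure D2:**
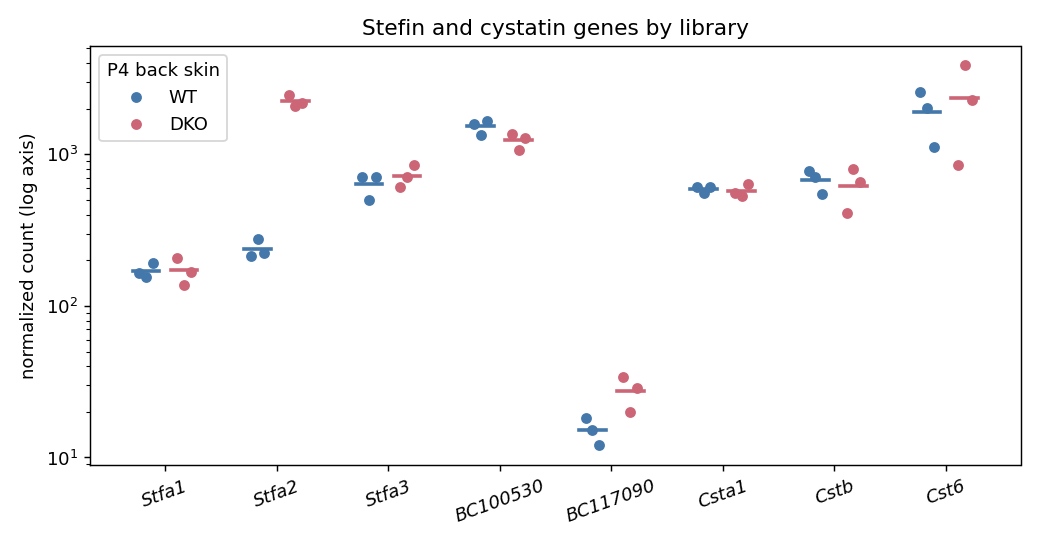
Normalized counts (log axis) of the 8 genes with enough counts for a test, one point per library of P4 back skin, with bars at the group means of 3 WT and 3 DKO mice. *Stfa2* sits at 212 to 278 in WT and 2087 to 2475 in DKO skin, *BC117090* is separated at a far lower level, and the points of the other 6 genes overlap between the groups.

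*Stfa2* is a stefin A copy that has been linked to epidermal differentiation. The WT mice had deposited counts of 208, 328 and 259, and the DKO mice had 1883, 1892 and 2207, in replicate order. Scaled to a common library size, the normalized counts were 212, 278 and 222 in WT skin and 2475, 2087 and 2197 in DKO skin. Every DKO library was thus far above every WT library, and the lowest DKO value was 7.5 times the highest WT value. The group means were 237 ± 35.9 and 2253 ± 200 (SD, n = 3 each), a 9.49-fold difference and a fitted log2 fold change of 3.24 (SE 0.158). In bulk skin, more cells that make a transcript and more transcript per cell cannot be told apart.

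The separation of *Stfa2* did not rest on a single mouse. Leaving out each mouse in turn gave log2 fold changes between 3.16 and 3.37, and without DKO replicate 1, the library rich in muscle transcripts, the value was 3.16. The titles of the P4 libraries carry 1 of 2 numbers whose meaning the labels do not state: WT replicate 3 and DKO replicate 1 share 40972, and the other 4 share 47347. Among the former the DKO value of *Stfa2* was 11.2 times the WT value (1 mouse each), and among the latter the ratio of means was 8.74 (2 mice each). The difference was therefore present in both. These are the values for which *Stfa2* was chosen, so the splits describe their spread and are not a test.

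Across all 20168 genes tested, 14 passed the threshold for a call, an adjusted p under 0.05 with an absolute log2 fold change over 1 in edgeR, which is 0.0694% of them. Of the 10 family members, 8 had enough counts for the test and 1 was called, *Stfa2*. Normalized counts did not overlap between the groups in 2664 of the genes tested, or 13.2%, and in 2 of the 8 tested members, *Stfa2* and *BC117090*. Since the choice of members used this contrast, nothing is read from these shares. The median log2 fold change was 0.09 over the 8 tested members and 0.02 over all genes tested.

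The closest relative of *Stfa2*, *Stfa2l1*, was nearly silent in these libraries. It had deposited counts of 0, 2 and 2 in WT and 5, 1 and 3 in DKO skin, values at or near the floor of 3 counts, and the groups overlapped. Its counts stayed in single digits although its coding sequence is 96.4% identical to that of *Stfa2*, whose lowest DKO count was 1883. *Gm5483*, the relative of *Csta1*, was similar in level, with 0, 0 and 1 count in WT and 3, 2 and 1 counts in DKO skin, at or under the floor in every library. No fold is given for these 2 genes.

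*Stfa3*, the neighbour of *Stfa2* on the same strand, had normalized counts of 706, 497 and 712 in WT skin and 609, 707 and 848 in DKO skin. The groups overlapped, and the log2 fold change was 0.18 (SE 0.185). Within each library, counts of *Stfa2* over *Stfa3* ran from 0.3 to 0.56 in WT and from 2.59 to 4.07 in DKO skin, so *Stfa2* went from the lesser to the greater of the pair in all 3 DKO mice.

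Among the copies of the *Stfa1* type, *BC100530* carried the most counts. Its normalized counts were 1587, 1343 and 1665 in WT skin and 1364, 1060 and 1291 in DKO skin. The groups overlapped through DKO replicate 1, which lay just above WT replicate 2, and the log2 fold change was -0.31 (SE 0.145). *Stfa1* had 166, 154 and 193 in WT and 208, 138 and 168 in DKO skin, with a mean of 171 in both groups. *BC117090* was low, with 18.3, 15.3 and 12 normalized counts in WT and 34.2, 19.9 and 28.9 in DKO skin. Its groups did not overlap, the lowest DKO value being 1.08 times the highest WT value, and its log2 fold change of 0.86 (SE 0.368) did not pass the threshold. At 14 to 29 deposited counts per library, *BC117090* is the member whose value rests on the fewest reads among those tested.

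*Csta1*, the mouse gene that bears the name of human cystatin A, was the steadiest member. It had normalized counts of 605, 553 and 610 in WT and 553, 535 and 641 in DKO skin, and its replicates varied by an SD of 0.113 on the log2 scale within groups. Its log2 fold change was -0.03 (SE 0.137). A change the size of that of *Stfa2* is thus far outside the error of *Csta1*, *Stfa1* and *Stfa3*, whose standard errors were at most 0.2.

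The copies were then summed, because a sum does not depend on how reads are divided among them. Reads that were dropped, or given to genes outside the 8, are still missing from it. At 50 bases *Stfa2* also shares windows with *Gm4758* and *Gm49652*, which are outside the sum. The 8 cluster genes together had normalized counts of 3295, 2843 and 3416 in WT skin and 5254, 4550 and 5178 in DKO skin, and the groups did not overlap. The sum was 3185 ± 302 in WT and 4994 ± 387 in DKO skin (SD, n = 3 each), with a log2 fold change of 0.65 and a standard error of 0.128. Without *Stfa2*, the other 7 genes summed to 3083, 2564 and 3195 in WT and 2779, 2463 and 2981 in DKO skin. These sums overlapped, with a log2 fold change of -0.1 and a standard error of 0.135, so the added counts of the cluster in DKO skin were counts assigned to *Stfa2*.

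The make-up of the cluster shifted accordingly. *Stfa2* held 6.43%, 9.79% and 6.49% of the cluster's counts in the WT libraries and 47.1%, 45.9% and 42.4% in the DKO libraries. *BC100530*, the leading copy of WT skin, went from between 47.2% and 48.7% to between 23.3% and 26%. *Stfa3* took 17.5% to 21.4% in WT and 11.6% to 16.4% in DKO skin, and *Csta1* took 17.9% to 19.4% and 10.5% to 12.4%. Shares add to a whole, so a rise of one gene lowers the rest, and the smaller shares do not show that these genes fell.

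**Figure D3:**
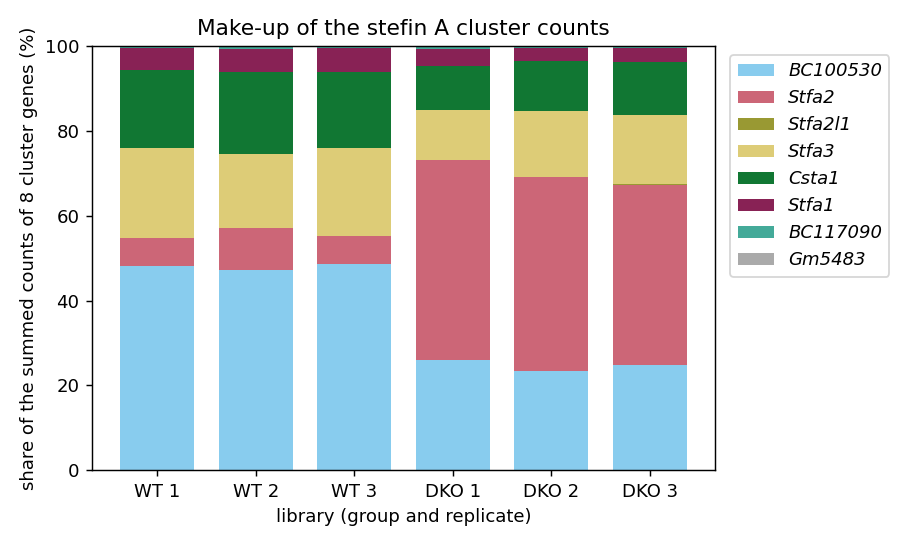
Share of the summed counts of the 8 stefin A cluster genes taken by each gene (%, vertical axis) in each library of P4 skin (horizontal axis). *Stfa2* fills 6.43% to 9.79% of the WT bars and 42.4% to 47.1% of the DKO bars, and *BC100530* is the widest band in WT skin.

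The 2 cystatins outside the cluster varied between mice more than between genotypes. *Cst6* had normalized counts of 2559, 2026 and 1117 in WT skin and 856, 3886 and 2270 in DKO skin, with an SD of 0.895 on the log2 scale within groups. Its log2 fold change of 0.3 had a standard error of 0.459, and it became -0.27 without DKO replicate 2. *Cstb* had 775, 707 and 546 in WT and 409, 797 and 656 in DKO skin, with a log2 fold change of -0.12 and a standard error of 0.236. It became 0.09 without DKO replicate 1.

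The values of *Cst6* and *Cstb* separated by the number in the library titles. In both genes the 2 libraries that share 40972, one WT and one DKO, lay below all 4 libraries that share 47347. This was seen in the values and then put to a fit with genotype and title number as terms. The choice of members did not use that contrast, but these same values prompted it. Its p-values for the 2 genes are therefore not an independent test. *Cst6* was lower under 40972, with means of 987 against 2685 normalized counts and a log2 difference of -1.42 (SE 0.26, adjusted p = 0.123, edgeR quasi-likelihood test), and *Cstb* had a log2 difference of -0.63 (SE 0.165, adjusted p = 0.267, same edgeR test). Neither passed the threshold, nor did any other member, against 1 of 20168 genes tested, or 0.00496%. *Stfa1* was the third tested member without overlap by title number, higher under 40972 at 193 and 208 against 138 to 168. Beside *Cst6*, *Cstb* and *Stfa1* stand 19.3% of all genes tested that also did not overlap by title number. The 6 tested cluster genes had log2 differences between -0.04 and 0.35, and that of *Stfa2* was 0.04 (SE 0.159).

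The neighbours of the cluster were read to see whether the difference extended along the chromosome. Within 500 kb of the cluster's ends lie 46 other annotated genes, of which 20 were tested. Of these, 0 were called by edgeR and 0 by DESeq2, 1 (5% of the 20, against 7.5% of all genes tested) had an unadjusted p under 0.05 (*Sema5b*, log2 fold change 0.59, adjusted p = 0.628), and the median log2 fold change was -0.04. Groups did not overlap in 5 of the 20, with *Fam162a* higher and *Dtx3l*, *Gm15845*, *Eaf2* and *Golgb1* lower in DKO skin, beside the 13.2% of all genes given above. The tested genes that lie closest to *Stfa2* are *BC100530* with its antisense gene *Gm15845* on one side and *Stfa3* on the other.

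**Figure D4:**
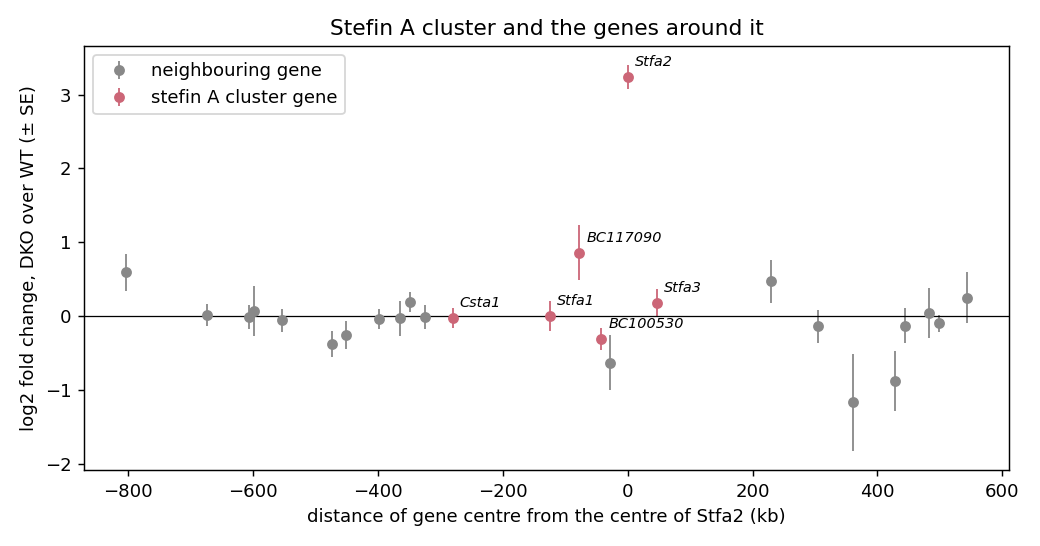
Fitted log2 fold change of DKO over WT skin (± SE, vertical axis) for the tested genes of the stefin A cluster and the 20 tested neighbours, by distance of each gene's centre from that of *Stfa2* in kb (horizontal axis). *Stfa2* stands at 3.24, and the neighbours lie between -1.17 and 0.59.

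Stretches before the starts of the genes were compared because KCTD1 and KCTD15 are known to bind and inhibit AP-2α, a transcription factor that binds the palindrome GCCNNNGGC. The study states, without showing the data, that AP-2α or AP-2α/AP-2β heterozygosity in keratinocytes did not rescue the skin of such DKO mice. It proposes that raised AP-2 activity is likely not critical for these defects, and names combined AP-2-dependent and AP-2-independent changes as an alternative. Whether AP-2 acts on the genes of the family was not tested. RefSeq promoters (GRCm38.p6) were held for 7 members, and 4 motifs were searched on both strands of the 250 bases before each RefSeq start: GCCNNNGGC, the AP-1 motif TGANTCA, the TATA box TATAAA and the grainyhead-like motif AACNNGTT. These starts are not always those of the GENCODE annotation: 197 of the 250 bases for *Stfa1*, 178 for *BC100530*, 94 for *Stfa2* and 52 for *Csta1* lie in annotated exons of the same gene. In each window the stretch of 29 bases most like the one around the GCCNNNGGC motif of *Stfa3* was located without gaps, and it matched that of *Stfa3* at 25 or more of the 29 bases. The motif was intact there in 4 copies, *Stfa1*, *Stfa3*, *BC100530* and *Csta1*. The stretches are printed with the 9 motif positions in capitals to show which copies keep the motif.
*Stfa1* (chr16:36277031-36277059, plus strand): agtaagacttGCCTAAGGCcacactcatt
*BC100530* (chr16:36367638-36367666, minus strand): agtaagacttGCCTAAGGCcacactcatt
*Stfa3* (chr16:36455483-36455511, minus strand): agtaagatttGCCTGAGGCcacactcatt
*Csta1* (chr16:36131191-36131219, minus strand): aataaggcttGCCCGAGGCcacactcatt
*Stfa2* (chr16:36408453-36408481, minus strand): agtaagacttGCCTGAGGTcacactcatt
*Stfa2l1* (chr16:36156689-36156717, plus strand): agtaagacttGCCTGAGATcacactcatt
*Gm5483* (chr16:36184097-36184125, plus strand): aataagacctGCCTGAGTCcacactcatt
Counted from 1 at the first base of the motif, with the motif's base first and the base of the gene last, *Stfa2* carries C9T, *Stfa2l1* carries G8A and C9T, and *Gm5483* carries G8T. The motif began between 86 and 109 bases before the RefSeq start in *Stfa1*, *Stfa3* and *BC100530* and 20 bases before it in *Csta1*. The stretches of *BC100530* and *Csta1* lie within the bounds of the counted genes, after the start that this annotation gives, and all 29 bases of the stretches of *Stfa1*, *BC100530* and *Csta1* lie in annotated exons. The motif occurs in 13.7% of all 32851 promoters of the table, and matches to the other 3 motifs, which occur in 6.75%, 12.4% and 3.64% of promoters, were seen in none of the 7 windows. The 7 windows belong to related copies, so they are not separate cases to set beside these shares. Identity between windows was 65.8% to 89.4% of alignment columns among those other than *Csta1*, and 44.6% to 50% between *Csta1* and the others. These are matches of letters, not measured sites of binding.

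The partners of the family showed no calls. The cathepsins and legumain, the proteases that cystatins inhibit, were all measured: of 11 genes, 0 were called by edgeR or DESeq2, 1 (9.09%, near the 7.5% of all genes) had an unadjusted p under 0.05, and the median log2 fold change was -0.01. That gene was *Ctsc*, the protease that activates granule serine proteases, with a log2 fold change of -0.41 (SE 0.14, adjusted p = 0.479, edgeR). *Lgmn*, the target of cystatin E/M besides the cathepsins, had a log2 fold change of 0.19 (SE 0.168), and *Ctsf* had 0.13 (SE 0.206). Of 19 other cystatin superfamily genes in the files, 3 were tested and 0 were called by edgeR or DESeq2, with 0 at an unadjusted p under 0.05. *Cst3*, the abundant secreted cystatin C, had 1322 ± 80.8 normalized counts in WT and 1260 ± 364 in DKO skin, *Cst7*, of leukocytes, had a log2 fold change of 0.11 (SE 0.368), and *Camp*, an antimicrobial peptide with a cystatin-like domain, had -0.23 (SE 0.418). A further 7 genes of this list had a count of 0 in all 6 libraries.

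The listed cornified envelope genes, into whose product stefin A is cross-linked, included the keratins *Krt1* and *Krt10*. The genes were higher in sum in DKO skin. Their summed level ran from 10599 to 10864 CPM in WT and from 12137 to 13420 CPM in DKO skin, without overlap. Of 25 tested genes, 0 were called by edgeR and 2 by DESeq2 (*Sprr1b* and *Lce3c*), whose calls made up 0.783% of all genes it tested. At an unadjusted p under 0.05 there were 7, or 28%, against 7.5% of all genes tested. The median log2 fold change over the list was -0.03, with 12 genes higher and 13 lower in DKO skin. Groups did not overlap in 9 of the 25, with 7 higher and 2 lower in DKO skin, beside 13.2% of all genes tested. Among those that overlapped were the precursors *Lor*, *Ivl*, *Evpl* and *Ppl* and the transglutaminases *Tgm1*, *Tgm3* and *Tgm5*. The sum was thus carried by abundant genes, foremost *Krt1* and *Krt10*, and does not stand for the list as a whole. The keratins *Krt1* and *Krt10* had means of 26926 and 29313 normalized counts in WT skin. In DKO skin their means were 46589 and 40743. *Krt1*, the keratin of the suprabasal layers, had a log2 fold change of 0.79 (SE 0.162, adjusted p = 0.202, edgeR). *Lce3c*, a late envelope protein, had 1.35 (SE 0.281, adjusted p = 0.204) and *Sprr1b*, a small proline-rich precursor, had 1.38 (SE 0.378, adjusted p = 0.341), both in edgeR.

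Markers of the other cells that could carry stefin transcripts are given beside these values. Of 23 neutrophil markers, *Ly6g* and *Mrgpra2b* had a count of 0 in all 6 libraries, *Mpo*, *Trem1* and *Fpr1* did not exceed 3 counts in any, and 7 had enough counts for the test. The list summed to 429 to 521 CPM in WT and 426 to 608 CPM in DKO skin, and nearly all of that was *Asprv1*, a protease that keratinocytes of the upper epidermis also make. Without *Asprv1*, which was left out after the values were seen, the other 22 genes were summed again. They reached 13.9 to 16.5 CPM in WT and 16.7 to 17.4 CPM in DKO skin, a narrow separation at a low level. *Il1r2* made up a large part of that sum and ran the other way. Its deposited counts were 145, 143 and 118 in WT and 65, 97 and 110 in DKO skin. By fitted log2 fold change, 5 of the 7 tested markers, *Asprv1* included, were higher in DKO skin and 2 were lower. Of the 7 tested markers, 0 were called by edgeR or DESeq2 and *Csf3r* alone had an unadjusted p under 0.05 (log2 fold change 0.91, adjusted p = 0.604), with 1.02 (SE 0.487) for *Mmp9* and -0.29 (SE 0.218) for *Il1r2*. The sums of 12 macrophage markers overlapped between the groups (188 to 243 CPM in WT, 228 to 300 CPM in DKO skin). By fitted log2 fold change, 11 of these 12 were higher and 1 was lower in DKO skin, with 0 called by edgeR or DESeq2. Groups did not overlap in 2, *C1qa* and *Csf1r*, which alone (16.7%, against 7.5% of all genes tested) had an unadjusted p under 0.05. *C1qa*, *Csf1r* and *Mrc1* had log2 fold changes of 0.59, 0.42 and 0.51. The sums of 10 adipocyte markers overlapped as well (1511 to 2285 and 1397 to 3173 CPM). Of these 10, 0 were called by edgeR, with 2 at an unadjusted p under 0.05, and 2 by DESeq2, *Retn* and *Cfd*, with log2 fold changes in edgeR of 1.42 (SE 0.35) and 1.09 (SE 0.326), and *Lep* had -0.74 (SE 0.342). The sums of 9 mast cell markers (228 to 247 and 259 to 334 CPM) did not, and *Hdc*, *Gata2* and *Mcpt4* had log2 fold changes of 0.78, 0.73 and 0.52 with 0 of 8 tested markers called by edgeR or DESeq2 and 3 at an unadjusted p under 0.05. Skeletal muscle markers also did not overlap, with 8 of 12 called by DESeq2 and 0 by edgeR, where 11 had an unadjusted p under 0.05. The log2 fold changes of *Tnni2*, *Acta1* and *Tnnt3* were 1.23, 1.14 and 1.07. The part of the neutrophil, macrophage, mast cell and muscle marker differences in the values of the family was not tested. *Stfa2* had a log2 fold change of 3.23 with library sizes that leave out the muscle genes.

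The genes whose pattern over the 6 libraries was most like that of *Stfa2* lay elsewhere in the genome. The ranking left out the 10 members and took 14570 tested genes with a mean normalized count of at least 50. The highest Pearson correlations of log2 CPM with *Stfa2* were those of *Igsf9b* (0.997), *Fgfr2* (0.99), *Snx22* (0.99), *Bex1* (0.989) and *Ptprv* (0.987). Within the family the correlation with *Stfa2* was 0.84 for *BC117090*, 0.31 for *Stfa3*, -0.02 for *Stfa1*, -0.22 for *Csta1* and -0.74 for *BC100530*. The 6 points share 2 groups that differ in *Stfa2* itself, so any gene that differs between the genotypes correlates with it, and the values are a description only. *Igsf9b* had normalized counts of 204, 204 and 198 in WT and 422, 417 and 419 in DKO skin. *Bex1* had 19.4, 17.8 and 15.4 in WT and 101, 97.1 and 76.6 in DKO skin, whereas *Fgfr2*, a receptor of keratinocytes for fibroblast growth factors, differed by 0.26 on the log2 scale (SE 0.108). A high correlation here thus stood for small spread within groups as much as for a difference of like size.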

How the data were processed

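After rRNA depletion, 150-bp paired-end reads were trimmed (Trimmomatic 0.36), aligned to GRCm38 (STAR 2.5.2b) and counted per gene (featureCounts, Subread 1.5.2) by the authors. The deposited values are raw counts per gene. Treatment of strand and of multimapping reads is not given in the sources used here.

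Symbols matched 48970 of 49315 identifiers (99.3%). Groups were taken from the labels, with 1 library per mouse. Counts were filtered (filterByExpr), TMM-normalized and compared in edgeR 4.0.16 (R 4.3.3) with the quasi-likelihood test and Benjamini-Hochberg adjustment over 20168 genes. On counts simulated for this comparison, 200 genes were changed by a log2 fold change of 2. Both tools called all 200, edgeR with 7 further calls in 20163 genes and DESeq2 with 0 in 32624. The changed genes were drawn from well counted ones, every gene was given the same dispersion, and the change lay above the threshold for a call. The simulation therefore does not show recovery for genes with few counts, wider spread or smaller changes. DESeq2, the tool the study names (run here in version 1.42.0), was an alternative, as were RLE or total-count scaling, other count filters, no fold threshold, library sizes without muscle genes, a block on title number and leaving out each mouse. A normalized count is the count scaled to the mean effective library size.

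Members and lists were chosen with earlier results of these data known. Genes to name were the 10 members, genes within 500 kb, the called genes and the 3 with the smallest p-values per list, the 5 genes most like *Stfa2*, and the targeted genes. Neighbours are named where groups did not overlap or p was under 0.05, and the basal keratinocyte and fibroblast lists are given as sums without naming their genes. Outside this rule, *Asprv1*, *Krt10*, *Rptn* and the markers at or near 0 were named after their values were seen. The same holds for *Lor*, *Ivl*, *Evpl*, *Ppl*, *Tgm1*, *Tgm3* and *Tgm5*. *Gm4758* and *Gm49652* were named for the sequence they share with *Stfa2*. The fit on title number and the sum without *Stfa2* were added after the data were seen.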

Additional observations from a re-analysis of the deposited data

How the results depend on the processing

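*Stfa2* was called in all 13 alternatives in which members were refitted, and no other member was called in any of them. The members were chosen with this contrast known, so these calls describe the same values and are not a test. The neighbours had 0 calls throughout. The summed cluster had log2 fold changes between 0.57 and 0.72. The count of called genes over the whole table was less stable. It was 14 in the analysis as reported, 154 with DESeq2, 22 with total counts, 210 with no filter on low counts and 35 with the block on title number. Leaving out 1 mouse gave between 2 and 36 calls: 2 without any 1 of the WT replicates, 36, 33 and 4 without DKO replicates 1, 2 and 3. Calls in the cystatin, cathepsin and cornified envelope lists went from 0 to 2 with DESeq2 (*Sprr1b* and *Lce3c*) and to 3 with no filter (these and *Rptn*). The pairs of neighbours in the WT level order that did not overlap numbered 4, and between 6 and 7 without 1 WT replicate, as fewer samples overlap less. The causes of the other shifts were not tested.

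The block on title number is not a pairing stated by the labels. WT and DKO libraries with the same number had correlations of their deviations from the group means between -0.02 and 0.23, of which 3 of 5 exceeded 0.1. The 4 pairs with different numbers lay lower, between -0.15 and -0.1. The block changed no member's call. Uncalled members moved around 0 when 1 mouse was left out: *Stfa1* from -0.17 to 0.13, *Csta1* from -0.11 to 0.03, *Cstb* from -0.33 to 0.09 and *Cst6* from -0.27 to 0.68. With 3 mice per group, a single gene's exact permutation p cannot go below 0.1, and counts of *Stfa2l1* and *Gm5483* are too low for any comparison.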
